A study of Mus musculus with 2 samples.

Results

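The endoplasmic reticulum folding and secretory pathway was followed here as a list of 55 genes among the 19294 gene symbols of 1 Drop-seq count matrix of mouse colon crypt cells. The genes were chosen by name, for the work of their proteins in folding, modifying and moving secreted and membrane proteins, and all 55 symbols were present in the matrix. By role they comprised 6 sensors and transcription factors of the unfolded protein response (UPR), 11 lumenal chaperones and cochaperones, 9 disulfide oxidoreductases, 6 genes of ER-associated degradation, 9 of the translocon, 4 of signal peptidase, 5 of oligosaccharyltransferase and 5 of traffic between the ER and the Golgi.

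The study examined colon crypt cells that had never activated a Tcf4-driven Cre, and profiled them with cells that had activated it recently. It asked whether the former express known markers of intestinal stem cells. Tcf4 is the name used there for the gene Tcf7l2. Cells were sorted, captured in droplets with barcoded beads, and counted as unique molecular identifiers (UMIs), each of which stands for 1 captured mRNA molecule. The matrix held 1117 cell barcodes and 1023641 UMIs in all.

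Every animal was a C57BL/6 mouse carrying Tcf4 GfpCre/+ and RosamTmG/+, killed at 4 to 10 months of age with no pretreatment. The Cre is a knock-in that disrupts the allele it sits in, so all the mice were heterozygous for Tcf4, and no mouse with both Tcf4 alleles intact was among them. The reporter marks membranes red before and green after Cre has acted. Sorted cells were either Tcf4 lineage-negative (Lin-, red) or from a doubly fluorescent or mixed gate, and they were collected as 2 pools, samples 1 to 3 and samples 4 to 6. Cells of several animals were thus mixed, and the barcodes did not say which animal, pool or gate a cell came from. Human cells had also been mixed in for the droplet run, and only the mouse genes were analysed here. Barcodes ended in 1 of 2 suffixes, X1 or X2, which the labels tied to no pool or gate, and 0 barcodes occurred in both sets.

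Secreted proteins enter the ER through the translocon, lose their signal peptide, receive sugar chains and disulfide bonds, and fold with the help of chaperones before vesicles carry them to the Golgi. When unfolded protein builds up, the UPR sensors raise the output of chaperones and degradation factors through transcription factors such as Xbp1, Atf4 and Atf6. Goblet cells of the colon secrete very large disulfide-linked mucins and are known for an extensive ER.

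Promoters of the list were read first, because the cis elements through which the UPR acts on folding genes are short and well described. The ER stress response element (ERSE) is CCAAT, 9 bases of any kind, then CCACG. In windows of 250 bases before to 50 after the RefSeq start (assembly GRCm38.p6, both strands), 43 of the 55 genes had a promoter, and 9 of these 43 (20.9%) held an ERSE against 37 of 27025 genes (0.137%). Atf6, Creb3l1, Derl1, Ern2, Hyou1, Kdelr2, Manf, Mzb1, Sec11c, Sec61a1, Spcs3 and Ssr2 had none in the table. The elements of 6 genes that recur in the results are printed 5′ to 3′ on the strand on which they read as CCAAT to CCACG, with these bases in capitals.
Hspa5, chr2:34772025-34772043, plus strand, starting 65 bases before the start: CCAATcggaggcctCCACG
Pdia6, chr12:17266491-17266509, plus strand, 98 bases before: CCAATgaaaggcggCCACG
Dnajc3, chr14:118937827-118937845, plus strand, 105 bases before: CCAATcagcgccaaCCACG
Creld2, chr15:88819520-88819538, minus strand, 126 bases before: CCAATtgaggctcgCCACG
Canx, chr11:50325800-50325818, minus strand, 145 bases before: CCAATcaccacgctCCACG
Hsp90b1, chr10:86705533-86705551, plus strand, 107 bases before: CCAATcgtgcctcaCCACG

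Hsp90b1 had a further ERSE on the minus strand, and Derl3, Ero1lb and Syvn1 had 1 each. A related element, ERSE-II, is ATTGG, 1 base, then CCACG. It was found in 2 of the 43 promoters (4.65% against 0.0444% of all genes), and both genes encode proteins that act beside the chaperone Hspa5 or in degradation.
Herpud1, chr8:94386377-94386387, plus strand: ATTGGgCCACG
Dnajb11, chr16:22857852-22857862, plus strand: ATTGGcCCACG

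The UPR element TGACGTGG was present in 4 promoters (Kdelr3, Sec24d, Txndc11 and Txndc5; 9.30% against 0.714%), and the cyclic AMP response element TGACGTCA, which differs from it only at its end, in 0 against 2.03% of all genes. The 250 bases before the start of Hspa5, the ER Hsp70 whose promoter is the textbook UPR target, are given in full with the ERSE in capitals (chr2:34771840-34772089, plus strand).
Hspa5: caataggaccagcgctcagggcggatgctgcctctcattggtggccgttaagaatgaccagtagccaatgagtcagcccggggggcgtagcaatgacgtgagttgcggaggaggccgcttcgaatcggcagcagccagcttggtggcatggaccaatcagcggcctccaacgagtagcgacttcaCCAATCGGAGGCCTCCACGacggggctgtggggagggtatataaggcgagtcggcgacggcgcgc

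A match is a stretch of letters, and binding was not measured. Among secretory precursors, described below, the 6 genes with an ERSE and enough UMIs had a median fold of 2.15, and the 29 with a promoter but no ERSE had 1.79. Summed, the genes with an ERSE stood 1.51-fold higher there and those without 1.91-fold, so the order of these groups depended on how they were summarised.

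Cell labels were those of the study, joined by barcode. They placed 516 barcodes in 4 clusters, namely epithelial Pigr+ cells (93), natural intraepithelial lymphocytes (nIELs, 190), induced intraepithelial lymphocytes (iIELs, 186) and B cells (47). A separate clustering of epithelial cells placed 106 barcodes in 3 subclusters, which are stem cells (32), secretory precursors (32) and absorptive precursors (42). The clusters had been made from the same counts, so what follows describes 1 matrix, with no replicate and no test. The level of a gene or list is its UMI total in a group, per 1000000 UMIs of that group (CPM), and a fold is the level in a group over the level in the other cells of the same clustering. Intervals in parentheses after levels (exact Poisson), shares (exact Clopper-Pearson) and folds (exact binomial) are 95% intervals that cover counting error only.

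The names of the subclusters were checked against marker lists. Goblet markers (7 of 7 present, Spink4 the most abundant) summed to 55097 CPM in secretory precursors, 7307 in absorptive precursors and 14976 in stem cells, with Zg16 at 0 in stem cells. Absorptive markers (8 of 8 present, Krt19 the most abundant) summed to 1733, 6345 and 2115 CPM in the same order, with Aqp8 at 0 in all 3. Stem and cycling markers (8 of 8 present) summed to 396, 481 and 2477 CPM, with Sox4 the most abundant in stem cells and Ascl2 at 0 in both precursors. The study had named the subclusters from several of these same genes, so these values describe the names and do not test them. Without the deep cells, goblet markers in stem cells came to 3032 CPM. Pan-epithelial markers, led by Pigr, had 1441, 2037 and 3207 UMIs in stem, secretory and absorptive cells, an order kept for the lists that follow here. T cell markers had 0, 1 and 24 UMIs, 14 of the 24 from Trac, and B cell markers 12, 8 and 35, mostly Cd74. Of the enteroendocrine markers only Chgb, Neurog3 and Tph1 had a row in the matrix, and Chga and Neurod1 did not. Those present were at 0 in all 3 subclusters. Tuft cell markers had 0, 5 and 0 UMIs and stromal markers 1, 4 and 3.

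A few cells stood apart from the rest. In all, 14 of the 106 epithelial cells also carried a lymphocyte label in the clustering of all cells (6 stem cells, 3 secretory and 5 absorptive precursors). Among these 14 were the 4 cells with over 15000 UMIs, which held 24.9% of the UMIs of the subclusters and 30.4% of the UMIs of the 55 genes. All 4 were labelled iIELs yet had 0 T cell marker UMIs and 292 to 527 pan-epithelial UMIs. The deep stem cell had 895 goblet marker UMIs beside 23 of the stem list, and it alone supplied 483 of the 874 pathway UMIs of stem cells (55.3%). One deep absorptive precursor carried 494 goblet and 179 absorptive marker UMIs. No doublet caller was run, so whether a deep barcode held more than 1 cell was not tested, and summed levels and the genes most affected are given with and without them. The deep stem cell carried an X2 barcode and the other 3 an X1 barcode, so X2 alone still held the deep stem cell, and values for X2 without it were computed as well.

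The pathway as a whole was most abundant in secretory precursors. Its 55 genes made up 17876 CPM (17153-18622) in secretory, 12658 (11833-13526) in stem and 8717 (8253-9199) in absorptive cells, from 2300, 874 and 1323 UMIs. Secretory precursors thus stood 1.80-fold (1.69-1.91) above the other epithelial cells and 2.05-fold (1.92-2.20) above absorptive precursors, whereas absorptive precursors stood at 0.543 of the others (0.509-0.579). Stem cells lay close to the others with all cells counted, at 0.980-fold (0.909-1.06), and at 0.674 once the 4 deep cells were left out. Without these cells the fold of secretory precursors was 2.09, and the levels were 17173 CPM in secretory, 8529 in stem and 8090 in absorptive cells, so stem and absorptive cells then differed little.

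Cell by cell the same order appeared. The median share of a cell's UMIs that came from the pathway was 1.52% for secretory precursors (quartiles 0.958 to 1.87, range 0.785 to 2.66), 0.858% for stem cells (0.723 to 1.20, range 0.144 to 2.08) and 0.674% for absorptive precursors (0.515 to 0.974, range 0.280 to 3.77). All 32 secretory precursors lay above the absorptive median, and so did 24 of 32 stem cells. The ranges overlapped nonetheless, since 10 of 32 stem cells and 10 of 42 absorptive precursors exceeded 1%, as did 23 of 32 secretory precursors. One absorptive precursor reached 3.77%, with 46 of its 1219 UMIs. Median depth was 1820.5 UMIs for secretory and 1939.5 for absorptive precursors, and 995.5 for stem cells.

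**Figure D1:**
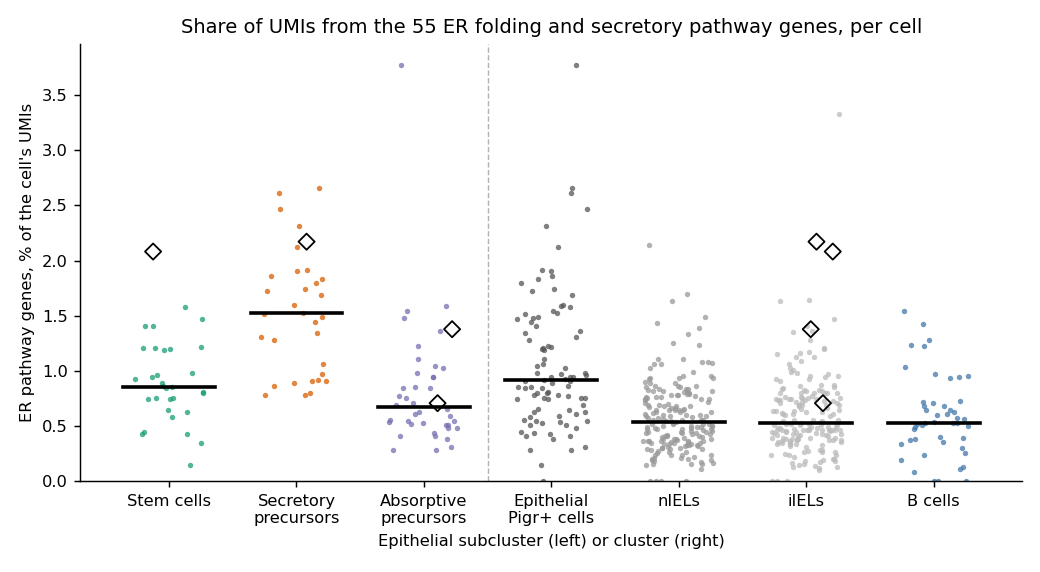
Each point is 1 cell and shows the percentage of its UMIs that came from the 55 genes, for the 3 epithelial subclusters and the 4 clusters, with bars at the medians and open diamonds for the 4 deep cells, which appear under both clusterings. The medians stand at 1.52% for secretory precursors, 0.858% for stem cells and 0.674% for absorptive precursors, with overlapping ranges.

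Single genes were counted when they had at least 20 UMIs in the cells compared and a fold of 2 or more, or of 0.5 or less. Of the 55 genes, 44 had 20 UMIs in the subclusters and 48 in all assigned cells. A gene that reached 20 UMIs only through the cells where it is high had to differ, so the counts describe and support nothing further. In secretory precursors 19 of 44 genes were at least 2-fold higher, where 9.16% of all 3013 genes with 20 UMIs were, and 0 were 2-fold lower, where 18.0% of all genes were. In absorptive precursors 0 of 44 were higher (12.9% of all genes) and 25 lower (12.6%), and in stem cells 0 were higher (13.1%) and 4 lower (16.6%). The median log2 fold of the 44 genes was 0.84 in secretory precursors against -0.26 over all genes, -1.06 in absorptive precursors against 0.11, and -0.07 in stem cells against -0.04. When levels were scaled by the median ratio of all genes, these medians over all genes were the shifts taken out, and the count in secretory precursors became 28.

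Barcode set and deep cells bore on the single genes unequally. Secretory precursors had 28 X1 and only 4 X2 cells, and of their 44 genes 12 stood on the other side of 1 in X2 alone and 1 in X1 alone. The other X2 cells included the deep stem cell, and without it 5 of the 44 stood on the other side of 1. The number of genes at least 2-fold higher there was 8 in X2 alone and 7 without that cell. Fewer genes reach 20 UMIs within X2, so these counts do not compare directly with the count over all cells. Without the deep cells, 38 of the 44 genes had a larger fold in secretory precursors and the median fold went from 1.79 to 2.40.

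**Figure D2:**
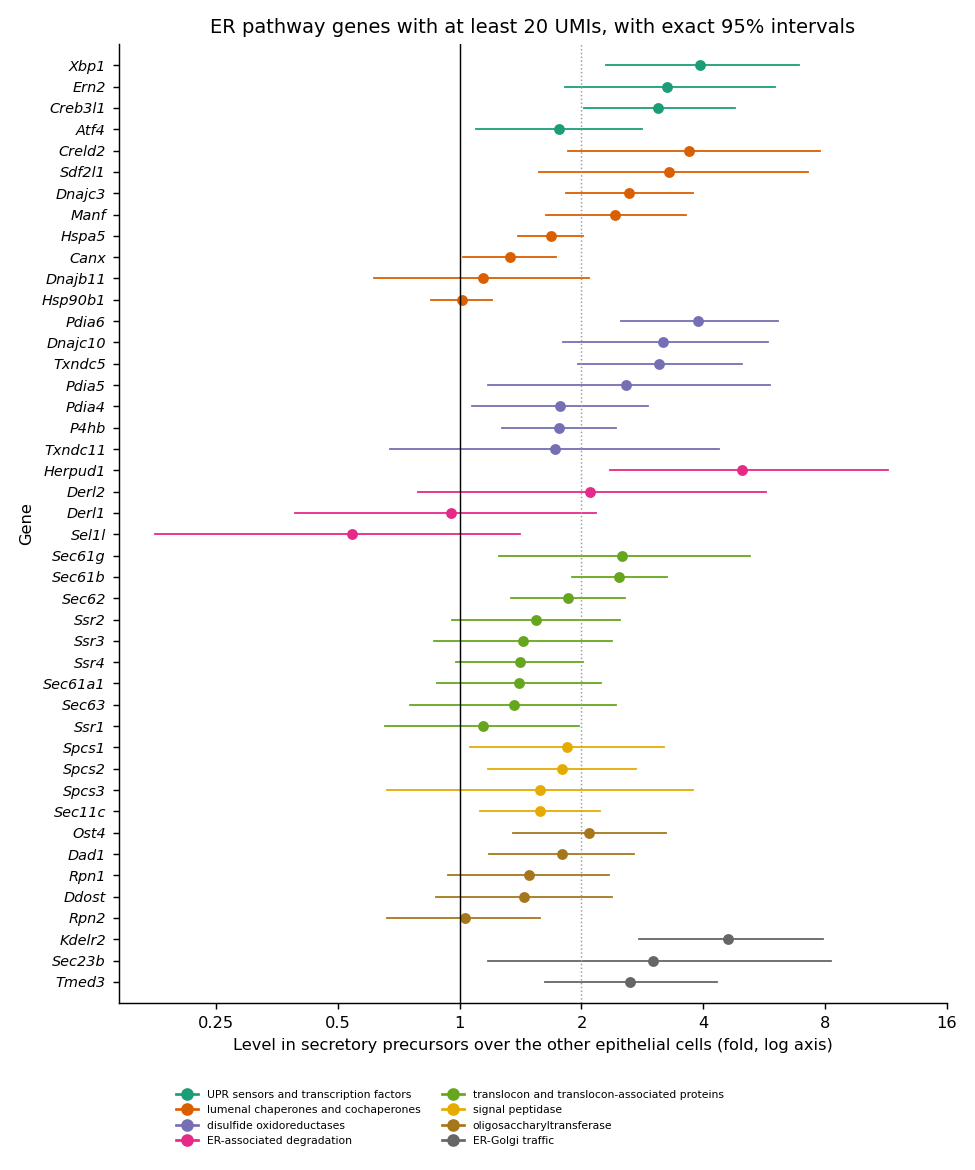
Points give the fold of each of the 44 genes with at least 20 UMIs in secretory precursors over the other epithelial cells on a log axis, coloured by role, with exact 95% intervals for counting error and a dotted line at 2. With all cells 42 genes lie above 1 and 19 at or above 2, while in barcode set X2 alone 12 of the 44 lie on the other side of 1 (5 without its deep cell).

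The sensors and transcription factors of the UPR came to 1508 CPM in secretory, 883 in stem and 389 in absorptive cells, with folds of 2.77 (2.20-3.51) in secretory and 0.301 in absorptive precursors. Xbp1, the transcription factor made active when Ern1 splices its mRNA, had 48 UMIs in the 32 secretory precursors, 12 in the 42 absorptive precursors and 9 in the 32 stem cells. Its fold in secretory precursors was 3.92 (2.30-6.90), with 4.18 in X1 and 3.86 in X2, and 8.71 without the deep cells. In X2 without its deep cell the fold was 10.2, from 10 UMIs against 2. An Xbp1 UMI was seen in 50% of secretory precursors and in 5.25% of 362 IELs outside the subclusters. At depths thinned to 800 UMIs a cell these shares were 23.0% and 4.38%, the median depths being 1820.5 and 1038 UMIs.

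Ern2, the mucosal paralogue of the sensor kinase Ern1, had all 55 of its UMIs in assigned cells within the 106 epithelial cells, some of which carry a lymphocyte label as well. Secretory precursors had 36 of its UMIs, absorptive precursors 11 and stem cells 8, a secretory fold of 3.25 (1.82-6.00). Its UMIs were seen in 46.9% of secretory precursors (23.3% thinned) and in 0 of the 362 IELs, at the same median depths, which allows a share of up to 0.829% by the floor of 3 counts and 1.01% by the exact interval. This limit is on cells with an Ern2 UMI and not on cells that express the gene, which depth can hide. Ern1 itself had 1 UMI in the subclusters, in a stem cell, and 3 in all assigned cells. The 2 paralogues were thus detected to very different extents, though their levels are not comparable between genes.

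Creb3l1, a membrane-bound factor released by proteolysis that is known in secretory cells, was counted with 65 UMIs in secretory, 19 in stem and 17 in absorptive cells. The fold in secretory precursors was 3.10 (2.03-4.79), higher in X1 (3.95) than in X2 (1.44), and the gene was seen in 59.4% of them (33.9% thinned) but in 0.276% of IELs (0.323% thinned). Atf4, the factor translated when the eIF2alpha kinases are active, had a smaller fold of 1.76 (1.10-2.83) from 39 UMIs and was 0.369-fold in absorptive precursors. Its stem level of 304 CPM was next to the secretory level of 303 CPM. Atf6, the sensor cleaved in the Golgi, had 11 UMIs in the subclusters, 6 of them secretory, and passed no minimum. Of the 4 regulators with 20 UMIs, 3 therefore passed 2-fold in secretory precursors, where 9.16% of all genes did.

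The lumenal chaperones and cochaperones were the most abundant role, at 6047 CPM in secretory, 4808 in stem and 3650 in absorptive cells. Their folds were modest for the abundant chaperones and larger for several cochaperones. Hspa5, the ER Hsp70 that binds unfolded chains and holds the sensors inactive, stood at 1795 CPM (1571-2042) in secretory, 1303 in stem and 962 in absorptive cells. Its secretory fold was 1.68 (1.40-2.02), and 2.23 without the deep cells, 1 of which held 53 of the 90 stem UMIs. Hsp90b1, the ER Hsp90 and the gene of the list with the most UMIs (566 in the subclusters), was nearly level, at 1.01-fold (0.850-1.20; 0.867 in X2), 1.16 in stem cells (0.974 in X2 without its deep cell) and 0.892 in absorptive precursors (1.01 in X2). Canx, the membrane lectin that retains glycoproteins until they fold, was higher in stem cells (1.51, 1.12-2.02) and secretory precursors (1.33, 1.02-1.73) and lower in absorptive precursors (0.538). Hspa5, Hsp90b1 and Canx thus stayed below 2-fold in secretory precursors with all cells counted.

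Several cochaperones and small factors had larger folds with all cells counted, and others, such as Dnajb11 below, did not. Creld2, a lumenal factor with isomerase activity, had a secretory fold of 3.70 (1.85-7.77), 8.83 without the deep cells, from 28 of its 41 UMIs, and was at 0.181 (0.0554-0.463) in absorptive precursors. A Creld2 UMI was seen in 50% of secretory precursors (21.2% thinned) against 3.04% of IELs (2.06% thinned). Dnajc3, a J-domain partner of Hspa5, had 81 UMIs there and a fold of 2.62 (1.83-3.78), and 4.30 without the deep cells. Its fold was 2.56 in X1, 2.68 in X2 and 3.80 in X2 without its deep cell. Manf, a small secreted and ER-resident factor, and Sdf2l1, part of a chaperone complex with J proteins, had folds of 2.43 (1.64-3.62) and 3.29 (1.57-7.25), but in X2 alone both lay below 1 (0.741 and 0.883), and above it in X2 without the deep stem cell (1.76 and 1.37, from 6 and 2 secretory UMIs).

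Dnajb11, another J protein of the ER, was at 1.14 in secretory precursors (0.927 in X2), 1.20 in absorptive precursors (0.991 in X1, 2.21 in X2) and 0.554 (0.193-1.30) in stem cells, from 20, 24 and 6 UMIs. Hyou1, the ER Hsp110, had 9 UMIs in secretory and 3 in stem cells, and 0 in absorptive precursors, where it was at least 3.07-fold lower than in the other epithelial cells. Dnajb9, the J protein that represses Ern1, had 8 of its 12 UMIs in secretory precursors. Mzb1, a B cell cochaperone, had 0 UMIs in all 106 epithelial cells.

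The disulfide oxidoreductases, which form and reshuffle disulfide bonds, stood at 2402 CPM in secretory, 1506 in stem and 777 in absorptive cells, a secretory fold of 2.39 (2.0-2.85). Pdia6 had the largest fold of them, 3.88 (2.51-6.12) from 70 UMIs, and 5.45 without the deep cells. Dnajc10, the reductase that unlinks chains for degradation, was at 3.18 (1.80-5.77), Txndc5 at 3.10 (1.96-4.98), and Pdia5 at 2.57 (1.17-5.86) from 18 UMIs. P4hb, the classical protein disulfide isomerase and with 81 UMIs the most abundant of them, and Pdia4 were at 1.76 and 1.77, although in X2 alone they lay at 0.956 and 0.579 (1.48 and 1.23 without its deep cell). Txndc11 was at 1.72 with 11 UMIs. Of the oxidases that recharge these enzymes, Ero1l had 5 UMIs in the subclusters and Ero1lb 0, so neither could be described at this depth.

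In absorptive precursors the oxidoreductases were at 0.372-fold as a sum. Pdia6 (0.264), Txndc5 (0.271) and Dnajc10 (0.277) were lowest, and Pdia4 (0.460) and P4hb (0.464; 1.37 in X2 without its deep cell) under 0.5. Pdia5 (0.474) and Txndc11 (0.488) were too, but they lay above 1 when each cell was weighted equally (1.91 and 1.08), and Txndc11 also in X2 (1.10).

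Genes of ER-associated degradation, which pull misfolded chains back to the cytosol, came to 497 CPM in secretory, 319 in stem and 270 in absorptive cells. With all cells counted, Herpud1, a membrane protein that organises the ligase complex, had the largest secretory fold of all 44 genes, 4.98 (2.36-11.4). Without the deep cells, genes described above, among them Creld2, Xbp1 and Pdia6, had folds over this all-cell value. Herpud1 had 29 of its 39 UMIs in secretory precursors, and its fold was 5.48 in X1 and 4.63 in X2. It was at 0.336 in absorptive precursors and at 0.220 (0.0256-0.851) in stem cells, where it had 2 UMIs. Derl2, a channel component, was at 2.10 with a wide interval (0.790-5.73) from 11 UMIs. Sel1l, the ligase scaffold, was lower, at 0.542 (2.05 in X2 without its deep cell, from 1 UMI), and Derl1 was at 0.954 (1.43 in X1 alone, 0.343 in X2 alone, 0.293 in X2 without its deep cell and 1.13 without the deep cells). Syvn1, the ligase itself, had 14 UMIs in the subclusters and Derl3 1.

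The translocon and its associated proteins came to 3505 CPM in secretory, 2491 in stem and 1799 in absorptive cells, a secretory fold of 1.74 (1.52-1.99). Sec61b, with 137 of 232 UMIs in secretory precursors, was at 2.48 (1.89-3.25) and 3.28 without the deep cells, and Sec61g at 2.52 (1.25-5.22) but 0.772 in X2 alone (1.02 without its deep cell). Sec61a1, the channel subunit, was at 1.40, Sec62 and Sec63, which serve import after translation, at 1.85 and 1.36, and the 4 translocon-associated Ssr genes between 1.14 and 1.54 (Ssr3 at 0.238 in X2). In absorptive precursors Sec62 (0.406), Sec61a1 (0.434), Sec61b (0.496) and Sec61g (0.482; 1.10 in X2) were below 0.5, and Ssr1 was above 1, at 1.22. Without the deep cells Sec61b and Sec61g were lower in stem cells (0.147 and 0.189) than in absorptive precursors (0.533 and 0.528), so which subcluster was lowest for them depended on those cells.

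Signal peptidase, which removes the signal sequence, was summed at 1251 CPM in secretory, 724 in stem and 751 in absorptive cells. With all cells counted, its 4 genes had secretory folds of 1.58 to 1.84 and none passed 2-fold, and Spcs3 lay at 0.441 in X2 alone (1.02 without its deep cell). Set against absorptive precursors only, Spcs2 was at 1.56 with all cells and at 2.31 without the deep ones, where the other genes of the role stayed below 2. In stem cells the deep cell carried all 7 Spcs1 UMIs, all 5 of Spcs3 and 22 of 28 of Sec11c. As a sum the role was at 0.738 there with all cells and at 0.181 without the deep cells, and Spcs2 alone was under 0.5 with all cells (0.472, 0.219-0.911, from 10 UMIs).

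Oligosaccharyltransferase, which attaches N-linked sugar chains, came to 1609 CPM in secretory, 1390 in stem and 896 in absorptive cells. Ost4, a very small subunit, had 50 UMIs in secretory precursors and a fold of 2.09 (1.36-3.24), and 4.89 without the deep cells. All 7 of its stem UMIs were in the deep cell, and its stem fold was 0.338 (0.132-0.729). The others had secretory folds between 1.03 (Rpn2, 0.797 in X2) and 1.79 (Dad1, 0.959 in X2), with Ddost at 1.45 (0.965 in X2). Without its deep cell these X2 values were 0.910, 1.54 and 1.14. Rpn1 (0.420) and Dad1 (0.458) were below 0.5 in absorptive precursors. Rpn1, at 1.48 in secretory precursors, had its highest fold, 1.68, in stem cells, although in X2 alone the stem value was 0.869 (1.5 without its deep cell).

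Genes of traffic between the ER and the Golgi had the steepest gradient as a role, with 1057 CPM in secretory, 536 in stem and 184 in absorptive cells. The secretory fold of the sum was 3.59 (2.65-4.90), and 5.06 without the deep cells. Kdelr2, a receptor that returns escaped ER proteins from the Golgi, had 59 UMIs and a fold of 4.60 (2.78-7.89). Its fold was 6.86 in X1, 2.83 in X2 and 7.51 in X2 without its deep cell, and it was at 0.205 (0.0977-0.389) in absorptive precursors. Tmed3, a cargo receptor of the p24 family, was at 2.63 (1.63-4.32) and Sec23b, a subunit of the COPII coat, at 3.00 (1.18-8.26) from 14 UMIs. Their absorptive folds were 0.269 and 0.289. Kdelr3 and the COPII subunit Sec24d had 8 and 9 secretory UMIs, 2 and 3 stem UMIs and 0 in absorptive precursors, which were at least 2.56-fold and 3.07-fold lower. All 5 genes thus ran the same way in these subclusters.

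**Figure D3:**
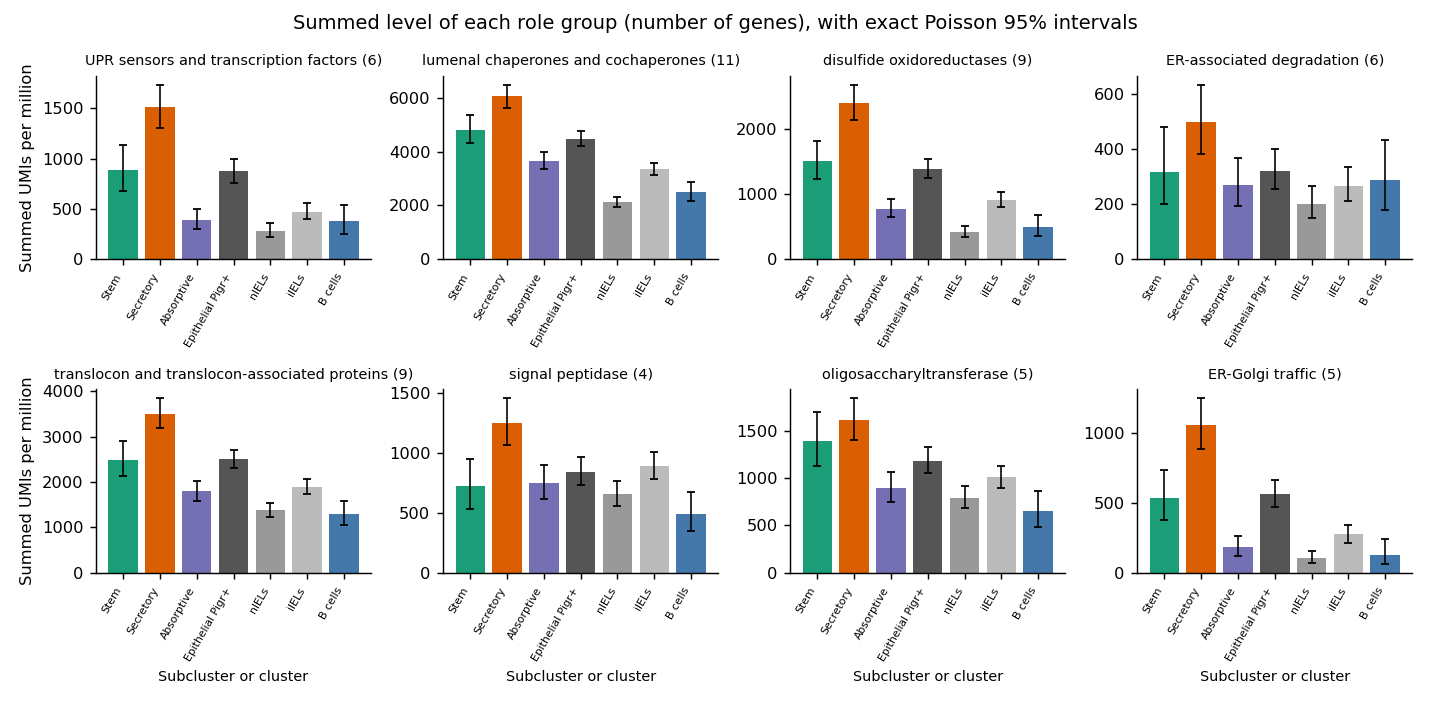
Bars give the summed CPM of each of the 8 roles in the 3 subclusters and the 4 clusters, with exact 95% Poisson intervals for counting error. The bars count all cells, the deep ones included. In each role secretory precursors are the highest of the 3 subclusters, from 497 CPM for ER-associated degradation to 6047 CPM for the chaperones.

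Without the deep cells secretory precursors were again the highest in all 8 roles, but the stem levels were lower. They came to 720 CPM for the UPR regulators, 3599 for chaperones, 807 for oxidoreductases, 1069 for oligosaccharyltransferase and 262 for traffic to the Golgi, where absorptive cells had 306, 3257, 761, 826 and 176. For the translocon (1723), signal peptidase (175) and degradation (175) the stem level then lay below the absorptive one (1809, 724 and 232).

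Within each barcode set as well, secretory precursors had the highest level of the 3 subclusters in all 8 roles. For the UPR regulators the X2 levels were 1347 CPM in secretory, 946 in stem and 353 in absorptive cells. For signal peptidase they were 1436, 992 and 1178 CPM.

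Not every gene had its largest fold in secretory precursors. With all cells counted, 6 of the 44 had it in stem cells, namely Hsp90b1, Canx, Sel1l, Sec61a1, Rpn1 and Rpn2. Sec61a1 was at 1.74 there (1.03-2.85; 1.33 without the deep cells), Rpn2 at 1.59 (0.979-2.51; 0.503 in X1, 1.76 in X2) and Sel1l at 1.91 (0.714-4.67; 0.787 without the deep cells). Without the deep cells 3 of the 6, Hsp90b1, Rpn1 and Rpn2, still had their largest fold in stem cells. Dnajb11 (1.20), Derl1 (1.30) and Ssr1 (1.22) had their largest fold, with all cells counted, in absorptive precursors.

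In stem cells, what the pathway looked like depended on the deep cells, of which 1 was a stem cell and the rest were among the other cells. With all cells counted, 19 of the 44 genes stood above 1-fold, and without the 4 deep cells 11 did, the median fold going from 0.952 to 0.520. Dnajc3 was at 0.363 (0.177-0.673) with all cells from 11 UMIs, and 0.157 without the deep ones. Many abundant genes owed their stem UMIs to the deep cell, which held 18 of 19 for Manf, 26 of 31 for Sec61b, 17 of 23 for Dad1 and 20 of 26 for Ssr4. Without it 5 genes had 0 stem UMIs, namely Sdf2l1, Pdia5, Spcs1, Spcs3 and Ost4. Goblet cargo stood at 0.546-fold in stem cells with all cells and at 0.120 without the deep cells, so it moved with the pathway. Its part in the result was not tested. Genes whose stem folds stayed above 1 without these cells included Atf4 (1.52, then 1.5), Hsp90b1 (1.16 both ways, but 0.974 in X2 without its deep cell), Canx (1.51, then 1.32), Sec62 (1.31, then 1.71) and Rpn1 (1.68, then 1.87, but 0.869 in X2).

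**Figure D4:**
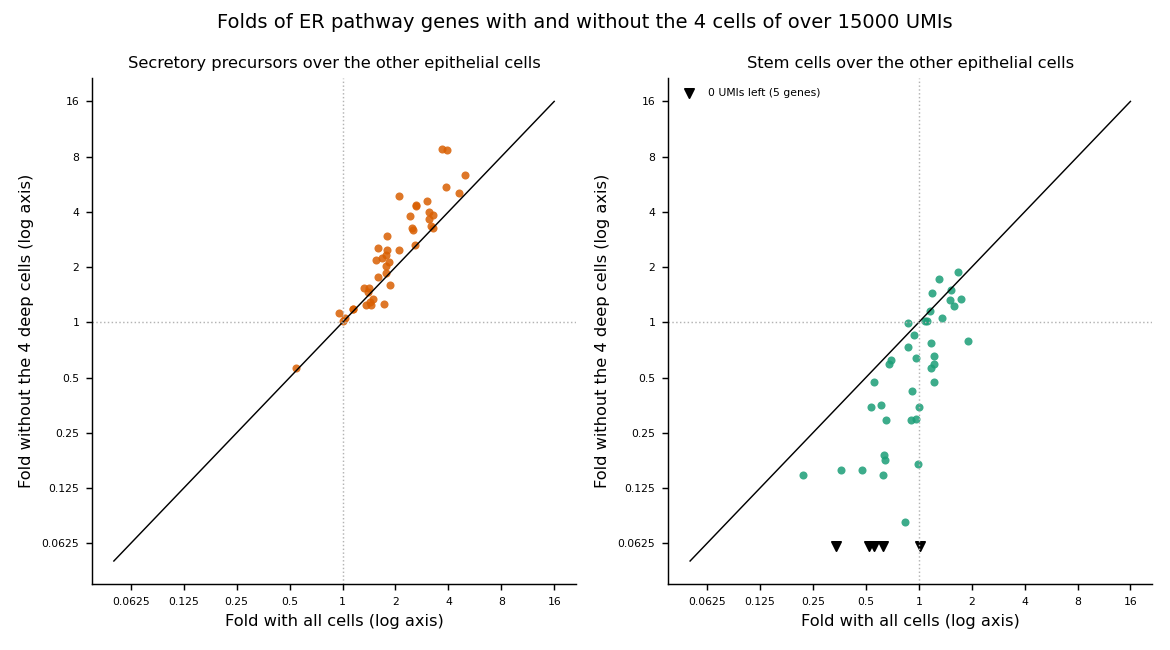
Each point is 1 of the 44 genes and sets its fold with all cells (x, log axis) against its fold without the 4 deep cells (y, log axis), for secretory precursors on the left and stem cells on the right, with triangles for 5 genes left with 0 stem UMIs. In secretory precursors 38 genes have a larger fold without these cells, and in stem cells 4 do.

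In absorptive precursors only 4 of the 44 genes stood above 1-fold, namely Dnajb11, Sel1l (1.02), Derl1 (1.30) and Ssr1, of which Dnajb11 and Derl1 fell below 1 in X1 alone (0.991 and 0.837, against 2.21 and 3.87 in X2) and Sel1l in X2 alone (0.368). Among the regulators Xbp1 was at 0.274, Creb3l1 at 0.264 and Ern2 at 0.326. Derl2 (0.326) and Manf (0.419; 1.43 in X2 without its deep cell) were lower as well, and Sdf2l1 (0.386) too, save that it was above 1 in X2 alone (1.29) and with each cell weighted equally (1.14). The count of 25 genes at or below 0.5 was 16 without the deep cells, 14 with each cell weighted equally, 12 in X2 alone and 6 in X2 without its deep cell, where fewer genes reach 20 UMIs.

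Set directly against absorptive precursors, secretory precursors had 23 of 40 counted genes at least 2-fold higher (11.5% of all 2410 genes) and 0 lower (17.1%). Among the 23, Pdia5 (2.65) lay at 0.978 with each cell weighted equally. Sdf2l1 (3.39) and Sec61g (2.60) lay at 0.762 in X2, each from 2 secretory and 3 absorptive UMIs. With all cells counted, the largest ratios and those of the regulators were 6.61 for Creld2 (2.52-21.9), 6.33 for Kdelr2 (3.29-13.4), 4.86 for Pdia6, 4.72 for Xbp1, 4.51 for Creb3l1, 3.86 for Ern2 and 2.71 for Atf4. Without the deep cells the largest were 12.2 for Xbp1, 8.26 for Creld2 and 7.10 for Tmed3, and Kdelr2 was at 4.26. The general chaperones differed far less, by 1.87-fold for Hspa5 (1.51-2.31) and 1.08-fold for Hsp90b1 (0.889-1.30; 0.892 in X2). Of the 40 genes 3 lay below 1, namely Derl1 (0.843; 1.34 in X1), Dnajb11 (0.983; 1.12 in X1) and Ssr1 (0.976; 1.15 with each cell weighted equally). All genes together had a median log2 ratio of -0.24 in this comparison, against which these values are to be read.

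Across the 4 clusters of all cells, epithelial Pigr+ cells had the highest summed level, 12159 CPM (11729-12601), followed by iIELs (9059), B cells (6231) and nIELs (5964). The 4 deep cells held 1367 of the 2574 pathway UMIs of iIELs, and the place of iIELs above B cells rested on them. The fold of iIELs was 1.04 with the deep cells and 0.704 without. Epithelial cells stood 1.63-fold above the other assigned cells, 2.0-fold without the deep cells and 1.14-fold in X2 alone. In X2 the other cells included the deep stem cell, labelled an iIEL, and without it the fold was 1.97. Typical cells of the 3 lymphocyte clusters hardly differed, with median shares of 0.535% in nIELs, 0.532% in iIELs and 0.532% in B cells, against 0.916% in epithelial cells. The median log2 fold of the 48 genes was 0.77 in epithelial cells against -0.10 over all genes, -0.84 in nIELs against -0.04 and -0.65 in B cells against -0.25.

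In epithelial Pigr+ cells 19 of 48 genes were at least 2-fold higher (19.2% of all 6173 genes with 20 UMIs) and 2 lower (24.0%). In X2, where fewer genes reach 20 UMIs, the 19 were 2 with all its cells and 9 without its deep cell. Ern2 (7.12, 3.80-14.1) and Creb3l1 (5.39, 3.51-8.46) led. They reached 42.6 and 49.2 once the deep cells had left the iIEL cluster, since few of their UMIs remained outside the epithelial Pigr+ cluster. For Ern2 those UMIs lay in subcluster cells that also carry a lymphocyte label, as IELs outside the subclusters and B cells had 0. Pdia5 was at 4.42, Tmed3 at 3.89, and Txndc5 at 3.84 but 0.899 in X2 alone (3.79 without its deep cell). Among subunits of the translocation and glycosylation machinery, Rpn1 was at 3.26, Sec61a1 at 2.31, Sec63 at 2.27, Rpn2 at 2.16, Ssr2 at 2.06 and Ssr4 at 2.03. Ssr4 was at 0.865 in X2 (2.16 without its deep cell). Sec61g (0.778), Dad1 (0.875) and Ost4 (0.772), of the same roles, lay below 1. Herpud1 was at 2.97, Kdelr2 at 2.63, Txndc11 at 2.58, P4hb at 2.41, Dnajc10 at 2.24 and Sec23b at 2.18, whereas Creld2 (2.62) and Sdf2l1 (2.01) lay below 1 in X2 alone (0.910 and 0.607), where without its deep cell Sdf2l1 was at 0.918 and Creld2 had 6 UMIs against 0. The most abundant genes were again moderate, with Hspa5 at 1.87 (1.61-2.18), Hsp90b1 at 1.71, Canx at 1.67, Sec61b at 1.60 (0.877 in X2, 1.31 without its deep cell) and Sec62 at 1.06 (0.986 in X2). Xbp1 was at 1.86 (1.21-2.83). The genes at or below 0.5 were Derl2 (0.486; 1.03 in X2 without its deep cell) and Mzb1.

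In nIELs 0 of 48 genes were 2-fold higher (11.1% of all genes) and 22 lower (22.3%). The 22 became 18 in X2 alone and 8 in X2 without its deep cell. Fewer genes reach the UMI minimum within X2, so these counts do not compare directly with the 22. The lowest of the 22 with a UMI rested on 1 or 2 UMIs in 190 cells. Creb3l1 (0.0497, 0.00594-0.184), Txndc5 (0.0523, 0.00624-0.194) and Ern2 (0.0947, 0.0112-0.359) had 2 each and Pdia5 (0.0836, 0.00205-0.503) had 1. The Ern2 UMIs lay in cells that also carry an epithelial subcluster label, as IELs outside the subclusters had 0. Xbp1 was at 0.321, Dnajc10 at 0.184, Tmed3 at 0.242, Creld2 at 0.256, Atf6 at 0.260, P4hb at 0.274, Kdelr2 at 0.297 and Hspa5 at 0.499. Dnajb9 was at 0.264 overall and 5.38 in X2 alone. The rest of the 22 were Rpn2 (0.335), Sec61a1 (0.348), Sel1l (0.369), Ssr3 (0.386), Ddost (0.404), Dnajb11 (0.412), Syvn1 (0.418), Txndc11 (0.448) and Mzb1 (0). Syvn1 lay above 1 when each cell was weighted equally (1.25), and Sel1l in X2 without its deep cell (2.11, from 1 UMI). In iIELs 0 genes were higher (4.33%) and 2 lower (7.00%), which were Herpud1 (0.449) and Mzb1, and 26 genes stood above 1-fold with the deep cells and 11 without.

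In B cells 3 of 48 genes were at least 2-fold higher (9.15% of all genes) and 16 lower (30.6%). Mzb1, a cochaperone of Hsp90b1 known for its part in antibody assembly, had all 24 of its UMIs in B cells, at 313 CPM. The floor of 3 counts places this at least 80.8-fold above the other assigned cells. Mzb1 was seen in 11 of 47 B cells (23.4%, 12.3-38.0; 20.5% thinned) and in 0 of 362 IELs, at median depths of 1503 and 1038 UMIs. Atf6 followed with 10 UMIs and a fold of 4.59 (1.94-10.1), and Syvn1 with 4 UMIs and 2.38 (0.582-7.29; 0 UMIs in X2). Immunoglobulin genes, the cargo of plasma cells, summed to 579 UMIs and 7548 CPM in B cells, 65.7-fold (52.5-83.1) above the others, with 6 of 6 counted genes higher and Igkc the most abundant (301). B cell markers came to 18367 CPM there, and the 5 plasma cell markers present to 14 UMIs (182 CPM), of which Slamf7 had 8, Jchain 4, Prdm1 2 and Irf4 and Sdc1 0. The part of the cargo in the Mzb1 result was not tested.

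The share of lower genes in B cells was near that over all genes. Of the 16, Ern2, Creb3l1, Pdia5 and Sec23b had 0 UMIs, and the floor of 3 counts places only Creb3l1 past 2-fold, at least 3.40-fold lower, with at least 1.81-fold for Ern2, 1.19-fold for Sec23b and 1.02-fold for Pdia5. Between 0.3 and 0.5 lay Rpn2 (0.306), P4hb (0.361), Spcs2 (0.367), Kdelr2 (0.404), Txndc5 (0.430; 1.42 in X2 without its deep cell), Ssr2 (0.439), Ssr4 (0.442), Pdia6 (0.462) and Canx (0.489). Creld2 (0.389, 0.0459-1.48), Sdf2l1 (0.396, 0.0467-1.51; 2.10 in X2) and Txndc11 (0.316, 0.00776-1.89; 1.91 in X2) rested on 2, 2 and 1 UMIs. Xbp1 had 5 UMIs and a fold of 0.549, and 4.67 in X2 alone, where B cells numbered 5.

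Genes of the wider pathway ran with the 55 in secretory precursors to differing degrees. Other lumenal folding factors (15 of 18 listed symbols present) were 3.38-fold higher as a sum, 5.21 without the deep cells, with 5 of 11 counted genes at least 2-fold higher, where 9.16% of all genes were. Agr2, the isomerase needed to make mucin and a gene by which the study named this subcluster, supplied 1369 of the 2105 UMIs and was at 5.28 (4.74-5.89), with Selm at 4.42, Fkbp11 at 3.97 and Pdia3, the partner of Canx, at 2.61. Calr, the soluble counterpart of Canx, was at 1.83. Further translocation and targeting genes had 6 of 14 higher (Krtcap2, Ostc, Serp1, Srp19, Srp9 and Srpr) and a sum of 1.67-fold. The COPII coat with its cargo receptors had 7 of 19 higher (1.57-fold) and the COPI coat 5 of 12 (1.87-fold). Glycan trimming and further degradation genes had 1 of 11 higher (Vimp), a share like that over all genes, and 2 lower (18.0% of all genes), at 1.26-fold.

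A list of other UPR and secretory cell regulators had only 2 genes with 20 UMIs. Creb3l4, a relative of Creb3l1, was at 7.15 (2.86-21.3), and Spdef, a transcription factor of goblet cells that is also among the goblet markers above, at 3.96 (2.0-8.27). Chaperones outside the ER, a list of cytosolic genes with the mitochondrial Hspd1, Hspe1 and Hspa9, had a sum of 0.587-fold (0.541-0.636) in secretory precursors and 1.39-fold in stem cells, with Hsp90ab1 the most abundant. In secretory precursors 0 of 20 were at least 2-fold higher (9.16% of all genes) and 5 lower (18.0%), namely Hsph1, Hspa9, Dnaja1, Cct6a and Hspd1. The count of lower genes was thus not far from that over all genes.

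The secreted cargo was summed as well. Goblet cargo genes, led by Spink4 with 2564 UMIs, made up 80271 CPM in secretory, 22463 in stem and 7946 in absorptive cells, with 10 of 11 at least 2-fold higher (9.16% of all genes) and a sum of 6.43-fold, or 13.8 without the deep cells. The study named the secretory subcluster by genes that include 6 of these 11 (Muc2, Spink4, Reg4, Clca1, Fcgbp and Ang4), and by Agr2, so their high level there follows from the naming and sets no scale for the pathway. Their part in the level of the pathway was not tested.

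Across the 106 epithelial cells, the pathway's share of the UMIs left after cargo was set aside went with the cargo's share, with a Spearman coefficient of 0.574. It was 0.571 over the 102 cells without the deep ones, 0.604 over 79 X1 cells and 0.530 over 27 X2 cells. Within subclusters it was 0.261 in stem cells, 0.0636 in secretory and 0.111 in absorptive precursors. The Pearson coefficients were 0.506 over all cells, 0.549 in stem cells, 0.0439 in secretory and 0.295 in absorptive precursors, so for stem cells the 2 measures differed. The cells share libraries and both measures share each cell's depth, with which the pathway's share had a coefficient of 0.211 over all cells and 0.550 within secretory precursors.

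**Figure D5:**
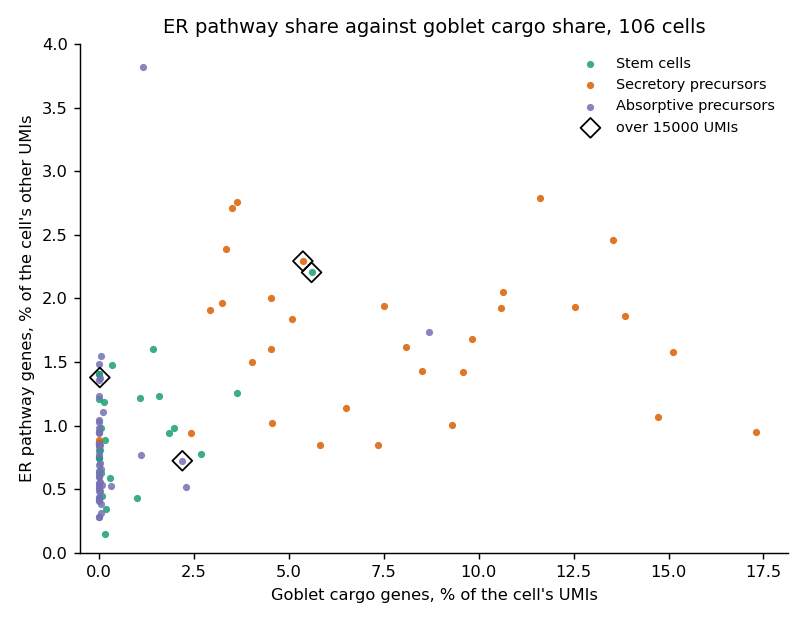
Each point is 1 of the 106 epithelial cells, with the percentage of its UMIs from goblet cargo genes on x and the percentage of its other UMIs from the 55 genes on y, coloured by subcluster, with diamonds for the 4 deep cells. The Spearman coefficient is 0.574 over all cells and 0.0636 within secretory precursors.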

How the data were processed

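Drop-seq had been run on 2 pools of sorted mouse colon cells. The authors deposited 1 matrix of UMI counts per gene and barcode, aligned, per the submitters' processing notes, with STAR 2.5.0 and Picard 1.137 to hg19 and mm10. Its 1117 barcode columns carry no map to samples and were treated as 1 sample. Cell labels came from the barcode lists of the study, which cover 516 barcodes. No normalisation beyond CPM was applied, no cell was removed and no doublet caller was run.

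Counts were summed and folds computed in Python 3.11.15 with numpy 2.4.6, scipy 1.17.1 and pandas 2.3.3, and plots were drawn with matplotlib 3.10.9. The steps were tested on simulated data. Thinned shares are exact expected values at 800 UMIs, which left out 18 epithelial cells, 98 IELs and 9 B cells. A count of 0 was given the floor of 3 counts over the group, and fold bounds from it took the other count as exact. Promoters were RefSeq windows of GRCm38.p6, matched by symbol.

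Values are given for every UPR sensor or transcription factor, every gene with at least 20 UMIs and a fold of at least 2 or at most 0.5 in a subcluster or cluster, the 5 genes with the most UMIs in assigned cells, and Mzb1. Others are given by counts and ranges, and any value shown for them, as for the single genes of other lists, was chosen after seeing the values. The genes and lists were chosen with earlier results of these data known.

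Alternatives were totals without 346 mitochondrial and ribosomal protein genes, scaling by the median ratio of all genes, the mean of the CPM of each cell, each barcode set alone, omission of the deep cells, of cells with conflicting labels, of the top cell and of the most abundant or the low genes, joined barcodes that differ at 1 base, thinning to 800 UMIs, UMI minimums of 10 and 50 and a fold of 1.5. Counts of lower genes in absorptive precursors and nIELs under the alternatives, values for X2 without its deep cell, and ratios of single genes of secretory to absorptive precursors by barcode set, without deep cells and as a mean over cells, were added after seeing the data.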

Additional observations from a re-analysis of the deposited data

Results flagged for a closer look

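Barcodes that the study placed in no cluster held UMIs of the pathway above the limit that a count of 0 allows. These 601 barcodes, with a median of 212 UMIs, had 643 pathway UMIs among 171737, or 3744 CPM (3460-4045), and 52 of the 55 genes had at least 1 UMI in them. In 304 of the barcodes no pathway UMI was seen. They were used in no comparison, and what they are was not tested.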

How the results depend on the processing

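Of 187 values of summed levels and counts under an alternative, 119 stayed within the interval of the reported value or, for counts, within 1.5 times of it, and 68 did not. The cause was not tested for any of them. No paired analysis was possible because the cells could not be mapped to samples and nothing was tested.

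For stem cells the summed fold of 0.980 was 0.812 as a mean over cells, 0.657 in X1, 0.608 in X2 without its deep cell, 0.674 without the deep cells, 0.656 without cells of conflicting labels and 0.660 without the top cell. For secretory precursors 1.80 became 2.15 with the median ratio, 2.08 in X1, 1.48 in X2, 2.06 in X2 without its deep cell, 2.09 without deep cells, 2.09 without conflicting labels and 1.95 without the gene with the most UMIs. For absorptive precursors 0.543 became 0.503 with the median ratio, 0.674 as a mean over cells, 0.603 in X2, 0.694 in X2 without its deep cell, 0.493 without the top cell and 0.502 without the top gene. The ratio of secretory to absorptive precursors, 2.05, became 2.42, 1.86 and 2.26 with the median ratio, the mean over cells and no top gene.

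For epithelial Pigr+ cells 1.63 became 1.51 without mitochondrial and ribosomal protein genes, 1.75 with the median ratio, 1.77 as a mean over cells, 1.14 in X2, 1.97 in X2 without its deep cell, 2.0 without deep cells and 2.02 without conflicting labels. For nIELs 0.598 became 0.647, in the first of these, 0.783 as a mean over cells, 0.655 in X1, 0.412 in X2, 0.479 in X2 without its deep cell, 0.662 without deep cells and 0.657 without conflicting labels. For iIELs 1.04 became 0.872 as a mean over cells, 0.984 in X1, 1.32 in X2, 0.611 in X2 without its deep cell, 0.704 without deep cells, 0.692 without conflicting labels and 0.920 without the top cell. For B cells 0.686 became 0.815 with the median ratio, 0.837 as a mean over cells, 0.789 in X2, 0.931 in X2 without its deep cell, 0.756 without deep cells and 0.754 without conflicting labels.

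The 0 genes at least 2-fold higher in stem cells became 2 as a mean over cells, 2 in X1, 1 without the top cell and 6 at 1.5-fold. The 19 in secretory precursors became 8 in X2, 7 in X2 without its deep cell, 12 at a minimum of 50 UMIs and 31 at 1.5-fold, and the 19 in epithelial Pigr+ cells became 2 in X2 and 9 in X2 without its deep cell. The 3 in B cells became 6 as a mean over cells, 1 in X2 without its deep cell, 0 at 50 UMIs and 5 at 1.5-fold. The 25 lower in absorptive precursors became 14 as a mean over cells, 12 in X2, 6 in X2 without its deep cell and 16 without deep cells. The 22 lower in nIELs became 8 in X2 without its deep cell. The minimum of 20 UMIs was applied within the cells kept, so fewer genes could be counted in X2.

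The values for single genes under an alternative numbered 1033 and cover only folds already at least 2 or at most 0.5. Of these, 30 lay on the other side of 1 from the reported fold, 14 of them for folds whose own interval left out 1. In X2 alone Sdf2l1, Manf and Sec61g had secretory folds of 0.883, 0.741 and 0.772, and Sdf2l1, Creld2, Txndc5 and Ssr4 had folds of 0.607, 0.910, 0.899 and 0.865 in epithelial Pigr+ cells. In absorptive precursors Sdf2l1 was at 1.14 as a mean over cells and at 1.29 in X2. The last 5 arose in X2 without its deep cell, where Sdf2l1, Manf and P4hb had absorptive folds of 2.5, 1.43 and 1.37, Sdf2l1 an epithelial fold of 0.918 and Sel1l a fold of 2.11 in nIELs.

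Among all counted genes, near 1 or not, more changed side in X2 alone. Of 44 genes 12 did so in stem cells, 12 in secretory and 9 in absorptive precursors, and without the deep cell 14, 5 and 11. Of 48 genes 11 did so in epithelial Pigr+ cells, 7 in nIELs, 18 in iIELs and 19 in B cells, and without it 8, 8, 19 and 21. Depth limits the pathway most in its sparse genes, since 11 of the 55 had under 20 UMIs in the subclusters. The joining of related barcodes left 493 of 516 cells and 92 of 106 epithelial cells.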
